A study of Mus musculus with 8 samples.

Results

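Transcript levels of 32 cell cycle genes were read from hearts of Carns transgenic mice and of wild-type mice. The genes were chosen by name, with earlier results of these libraries known. They form a set of cyclins, cyclin-dependent kinases, kinase inhibitors, DNA replication genes and mitotic genes. All 32 were found by NCBI Gene number among the 18215 genes listed over the 8 libraries. Polyadenylated RNA from heart tissue was sequenced in 4 libraries labelled Carns transgenic (TG) and 4 labelled wild type (WT). The labels give the genotype and the tissue, and state neither the promoter of the transgene nor the strain, age or sex of the mice, so an adult stage is not taken from them. Whether each library is its own animal is not in the labels either, and the p-values below therefore speak of library-to-library spread, part of which may be technical.

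The cell cycle is driven by kinases that act only when bound to a cyclin. D-type cyclins with Cdk4 or Cdk6 start the phosphorylation of the retinoblastoma protein, which releases E2F factors and the genes of DNA replication, and cyclins E, A and B with Cdk2 and Cdk1 carry the cell through S phase and mitosis. The inhibitors p21, p27 and p57 bind these complexes. Heart muscle cells of mice largely stop dividing soon after birth, while the fibroblasts, endothelial cells and leukocytes of the heart can still divide, and whole heart tissue holds RNA of all of them. Genes of mitosis are kept silent in resting cells by the DREAM complex, which binds promoters at a short element named the cell cycle genes homology region (CHR), and replication genes carry E2F elements.

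Library totals lay between 6261193 and 7897629 expected counts, and 3 counts corresponded to between 0.38 and 0.479 CPM (counts scaled to the size of the library), so levels near or below that range rest on very few reads. Carns1, the gene carried by the transgene, stood between 19071 and 24288 CPM in the TG libraries and between 44.5 and 73.3 CPM in the WT libraries. Heart muscle markers such as Myh6, the heart myosin heavy chain, were high in all libraries (22833 CPM in the lowest). The libraries fell into a deeper class (TG replicates 1 and 3, WT replicates 1 and 2) and a shallower class (TG replicates 2 and 4, WT replicates 3 and 4). In 29.9% of the 12670 tested genes the 4 deeper libraries did not overlap the 4 shallower ones. TG replicate 2, and to a smaller degree TG replicate 4, also held fat transcripts, with 6 listed adipocyte markers summing to 486 and 25.8 CPM against 1.39 to 14.6 CPM in the other libraries. None of these 6 markers was at 0 in all libraries. TG replicate 2 also held 856 CPM over 5 atrial markers, against 61.3 to 260 in the other libraries.

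Promoter windows are shown first, since some members hold elements of known cell cycle factors there. RefSeq start sites of mouse assembly GRCm38.p6 were available for 26 of the 32 members, each window covering 250 bases before to 50 bases after the start. Of them, 4 windows are printed from 150 bases before to 25 bases after the start, with CHR, CCAAT and E2F words in capitals. Cdk1 and Cenpf stand for the mitotic genes, Mcm6 for replication and Cdk4 for a gene with none of these words.
Cdk1, chr10:69352888-69353062, minus strand: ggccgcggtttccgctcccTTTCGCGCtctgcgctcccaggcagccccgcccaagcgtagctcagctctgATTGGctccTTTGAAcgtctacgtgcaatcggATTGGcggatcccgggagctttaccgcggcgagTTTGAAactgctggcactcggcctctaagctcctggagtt
Cenpf, chr1:189688062-189688236, minus strand: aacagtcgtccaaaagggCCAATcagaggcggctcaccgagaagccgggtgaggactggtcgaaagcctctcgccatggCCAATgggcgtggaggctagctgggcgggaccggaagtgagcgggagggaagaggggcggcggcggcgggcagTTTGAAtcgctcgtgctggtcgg
Mcm6, chr1:128359681-128359855, minus strand: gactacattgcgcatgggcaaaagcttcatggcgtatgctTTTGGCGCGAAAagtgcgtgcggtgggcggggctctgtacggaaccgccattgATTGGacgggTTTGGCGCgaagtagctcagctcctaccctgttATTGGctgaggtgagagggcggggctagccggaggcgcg
Cdk4, chr10:127063385-127063559, plus strand: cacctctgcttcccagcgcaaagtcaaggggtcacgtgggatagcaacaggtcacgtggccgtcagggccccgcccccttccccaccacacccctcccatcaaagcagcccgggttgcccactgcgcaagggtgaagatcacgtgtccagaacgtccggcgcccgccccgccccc

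The words searched, on both strands of the full windows, were TTTGAA or TTCGAA for the CHR, CCAAT for the NF-Y site, and TTTCCCGC, TTTGGCGC, TTTCGCGC or TTTGCCGC for E2F. A CHR word lay in 7 of the 9 mitotic members with a window (Aurka, Bub1, Bub1b, Cenpf, Mki67, Plk1 and Top2a) and also in Cdk1, Ccnb2 and Mcm2, where 19.2% of all 32851 promoter windows held one. E2F words lay in Mcm3, Mcm5, Mcm6, Cdk1 and Cdk2, against 2.26% of all windows. A CCAAT word lay in 20 of the 26 members and in 37.4% of all windows. Windows of Cdk4, Cdk6, Cdkn1a, Ccne1, Tyms and Birc5 held none of the 3. Words of different elements overlapped in 0 places, while E2F words on the 2 strands overlapped each other in Mcm5 and in Mcm6, where they start 110 and 106 bases before the start site. Some members have more than 1 start site, and a word in any of their windows was counted. These matches are descriptions of letters and not binding data.

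The members fell into very different levels per length. In the authors' FPKM (fragments scaled for gene length and library size), 8 members averaged above 10 FPKM and 14 averaged below 1 FPKM over the 8 libraries. The highest level was that of the D-type cyclin Ccnd3 at 66.3 ± 7.6 FPKM (SD, n = 8), followed by its partner kinase Cdk4 at 49.8 ± 6.2 and by Ccnd1 at 38.8 ± 3.7 FPKM. Next came Cdkn1a at 27.8 ± 6.1, Ccnd2 at 25.7 ± 5.3, Cdkn1c at 25.4 ± 5.0 and Pcna at 23.2 ± 2.8 FPKM, where each differed from its neighbour in this order by less than 1 SD of either. Cdkn1b at 14.7 ± 2.2 FPKM closed the upper level, which thus held all 3 D cyclins, all 3 inhibitors, Cdk4 and Pcna.

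**Figure D1:**
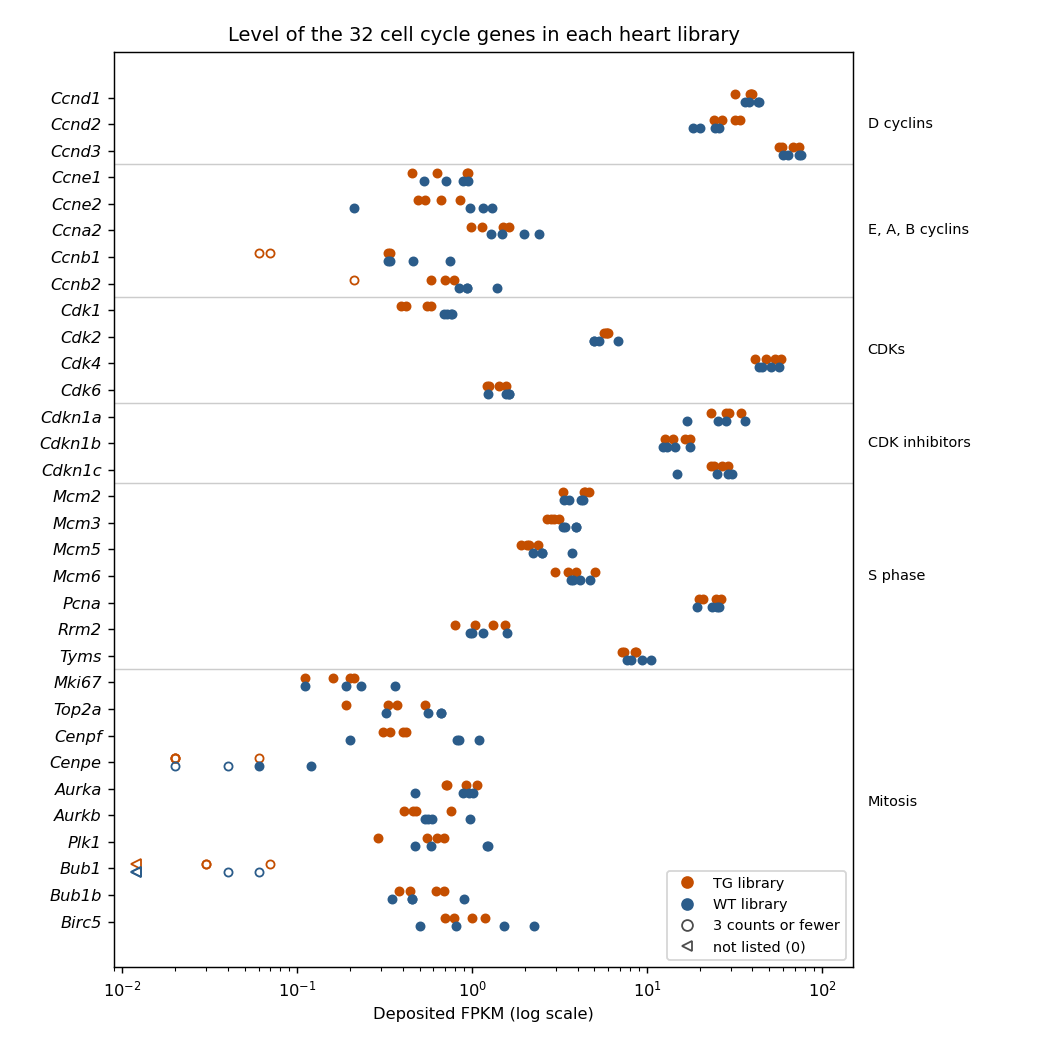
Deposited FPKM (horizontal, log scale) of each of the 32 genes in each library, TG in orange and WT in blue, with open circles for 3 counts or fewer and triangles for libraries in which a gene was not listed. D cyclins, Cdk4 and the inhibitors lie above 10 FPKM in all libraries, and most mitotic genes lie below 1.

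Tyms, Cdk2, the Mcm genes, Cdk6, Rrm2, Ccna2 and Birc5 lay between these levels, from 8.41 ± 1.13 FPKM for Tyms down to 1.10 ± 0.57 FPKM for Birc5 (SD, n = 8). The lowest level held the other mitotic genes, the cyclins E and B, and Cdk1, with means from 0.029 FPKM for Bub1 to 0.84 FPKM for Aurka. Counts of 3 or fewer occurred in 4 members, in 8 libraries for Bub1, 6 for Cenpe, 2 for Ccnb1 and 1 for Ccnb2. For comparison within one complex, Cdk4 averaged 49.8 FPKM and Cdk6, the other kinase of D cyclins, 1.44 ± 0.18 FPKM, and every library showed that order.

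Of the 32 members 26 passed the filter on low counts and were tested, and 0 of them passed the threshold of 0.05 in TG against WT (edgeR quasi-likelihood test, Benjamini-Hochberg adjustment over 12670 genes, adjusted p = 0.99955 for each of the 26). Over all genes 2 passed, which is 0.0158%. At an unadjusted edgeR p under 0.05 stood 3 members, Ccnd2, Cenpf and Cdk1, a share of 11.5% beside 3.49% of all genes, and DESeq2 gave 2 members at that level and 0 after adjustment. That count was 1 without WT replicate 1, 7 with the depth class as a covariate and 5 with library weights, and from 2 to 4 under the other settings. A negative log2 fold change was found in 17 of 26 members (65.4%) and in 50.5% of all genes, with a median of -0.08 over the members and -0.002 over all genes. In 2 of the 26 members every TG library lay below every WT library (7.69%, beside 1.29% of all genes), and in 0 members every TG library lay above, beside 1.23% of all genes. The members were chosen with earlier results of these libraries known, so their shares are not independent of those results and are given as description only. In such bulk libraries fewer cells of a type and less RNA per cell cannot be told apart. The 6 members that were not tested, Ccnb1, Ccnb2, Cenpe, Aurkb, Plk1 and Bub1, are given below by their levels alone.

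**Figure D2:**
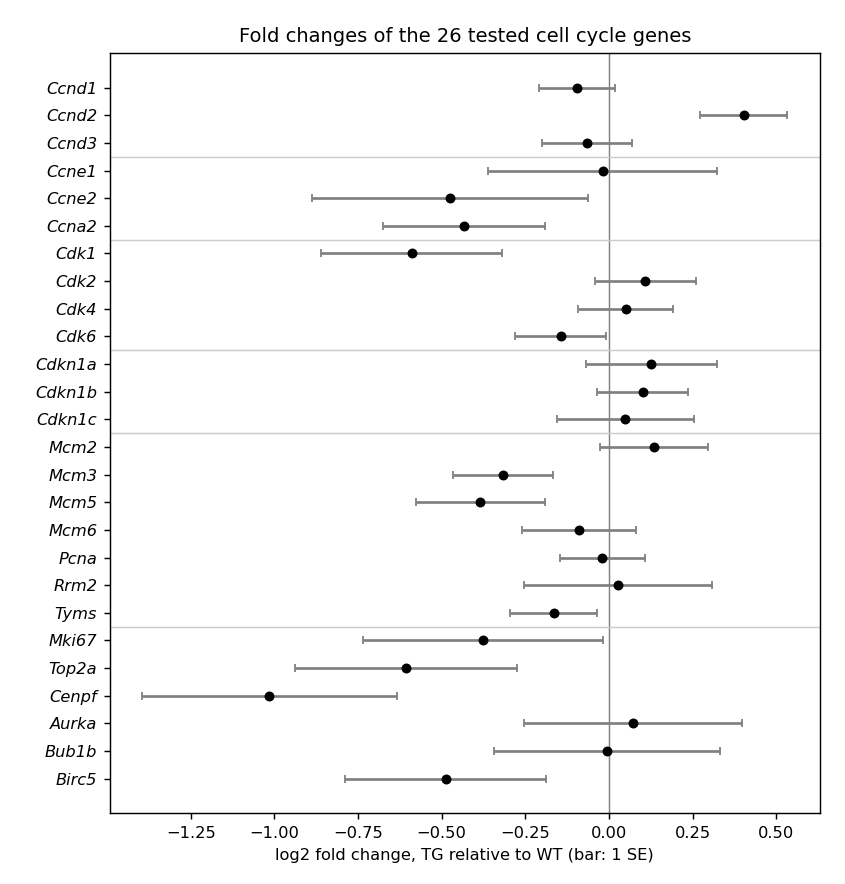
Log2 fold changes, TG relative to WT, of the 26 tested genes (horizontal; points are the edgeR estimates and bars 1 SE), in the order of their roles. D cyclins have SEs of 0.11 to 0.14 and mitotic genes of 0.30 to 0.38, and Ccnd2 and Cenpf are the farthest to either side.

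The precision followed the level only in part. The median SE of the log2 fold change was 0.13 for the D cyclins, 0.16 for the S phase genes and 0.33 for the tested mitotic genes, against 0.16 over all genes. For the inhibitors it was 0.19, at a median level of 25.4 FPKM. That was above the SE of the S phase genes, at 3.96 FPKM, and of the kinases (0.15), at 3.56 FPKM.

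The 3 D-type cyclins are the growth factor sensors of the cycle, and their fold changes lay between -0.10 and 0.40. Ccnd2 stood at 146, 185, 162 and 193 CPM in TG replicates 1 to 4 and at 152, 113, 140 and 113 CPM in the WT libraries replicates 1 to 4. Of the TG libraries 3 lay above all WT libraries, while TG replicate 1 lay below WT replicate 1, so the groups overlapped. Its log2 fold change was 0.40 (SE 0.13, a 1.32-fold difference, edgeR unadjusted p = 0.0091). The highest values were those of TG replicates 2 and 4, which held the fat transcripts and were also the shallower TG libraries. Without both of them the log2 fold change was 0.25 (edgeR unadjusted p = 0.123). Within the deeper libraries it was 0.21 and within the shallower 0.58. Leaving out these TG libraries removes fat transcripts and shallower depth together, so the 2 cannot be told apart. The parts of the fat transcripts and of the atrial transcripts of TG replicate 2 in this difference were not tested.

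Ccnd1 stood at 154, 122, 157 and 146 CPM in the TG libraries and at 169, 154, 162 and 133 CPM in the WT libraries, and its groups overlapped (log2 fold change -0.10, SE 0.11). Ccnd3 stood at 152, 113, 141 and 115 CPM in the TG libraries and at 148, 158, 126 and 114 CPM in the WT libraries, with a log2 fold change of -0.07 (SE 0.14). In Ccnd3 the 4 deeper libraries all lay above the 4 shallower ones, in both groups. Summed over the 3 cyclins, TG libraries held 446 ± 18 CPM and WT libraries 421 ± 45 CPM (SD, n = 4 each), and the ranges overlapped. Transcripts of Ccnd1, Ccnd2 and Ccnd3 share 818, 374 and 353 bases with the opposite strand of LTO1, Gm43126 and Bysl, and Cdk4 shares 641 with Tspan31, so without knowledge of strand their reads cannot be told apart there.

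The fold changes of the kinases Cdk2, Cdk4 and Cdk6 lay within about 1 SE of 0. Cdk4 stood at 82.1, 56.2, 74.8 and 63.4 CPM in the TG libraries and at 76.9, 72.8, 60.8 and 56.5 CPM in the WT libraries, again with the deeper libraries above the shallower ones, and a log2 fold change of 0.05 (SE 0.14). Cdk2 stood at 13.8 ± 0.8 CPM in the TG libraries and 12.8 ± 2.2 in WT, and Cdk6 at 16.0 ± 1.5 and 17.7 ± 1.8 CPM (SD, n = 4 each).

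Cdk1, the kinase that drives entry into mitosis, was the kinase with separated groups. It stood at 1.17, 1.59, 1.25 and 1.63 CPM in the TG libraries and at 2.19, 2.18, 1.96 and 2.14 CPM in the WT libraries, so every TG library lay below every WT library. These levels rest on 9 to 17 counts per library. Its log2 fold change was -0.59 (SE 0.27, edgeR unadjusted p = 0.049), and DESeq2 gave an unadjusted p of 0.157. With the deeper libraries alone the log2 fold change was -0.84, and with the shallower alone it was -0.34.

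All 3 inhibitors had positive fold changes within 1 SE of 0. Cdkn1a, which encodes p21 and is a target of p53, stood at 68.2, 56.3, 45.6 and 52.7 CPM in the TG libraries and at 32.6, 51.4, 68.4 and 52.1 CPM in the WT libraries. The WT libraries alone spanned more than the TG libraries did, and the log2 fold change was 0.13 (SE 0.19). Cdkn1b, which encodes p27, stood at 31.4, 33.8, 41.0 and 41.3 CPM in the TG libraries and at 31.7, 31.1, 34.3 and 40.7 CPM in the WT libraries (log2 fold change 0.10, SE 0.14).

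Cdkn1c, the imprinted gene of p57, stood at 53, 46.0, 57.6 and 43.4 CPM in the TG libraries and at 56.0, 61.8, 47.8 and 27.4 CPM in the WT libraries. WT replicate 4 was the lowest library, and the deeper libraries lay above the shallower ones. The log2 fold change was 0.05 (SE 0.21) and changed sign without WT replicate 4, at -0.14.

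Among the cyclins of later phases, Ccna2, which encodes cyclin A2 of S phase and G2, had the highest level per length. It stood at 2.87, 4.60, 3.34 and 4.16 CPM in the TG libraries and at 4.25, 3.82, 5.56 and 6.57 CPM in the WT libraries, with WT replicates 3 and 4 above all TG libraries (log2 fold change -0.43, SE 0.24). The cyclin E genes, which act at the start of S phase, had log2 fold changes of -0.02 (SE 0.34) for Ccne1 and -0.47 (SE 0.41) for Ccne2. Without WT replicate 2 the value of Ccne2 was -0.80, and without WT replicate 3 it was -0.25. Ccne2 was lowest in WT replicate 2, at 0.68 CPM, and highest in WT replicate 3, at 3.91 CPM.

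The mitotic cyclins B were too low for the test. Ccnb2 stood at 0.91, 0.32, 1.11 and 1.19 CPM in the TG libraries and at 1.29, 1.5, 2.11 and 1.38 CPM in the WT libraries, which were 2 to 14 counts, and the groups did not overlap. The shares of separated genes given above cover tested genes only, so none stands beside this untested gene. Ccnb1 stood at 0.78, 0.79, 0.14 and 0.15 CPM in the TG libraries and at 0.77, 0.82, 1.05 and 1.68 CPM in the WT libraries, where TG replicates 3 and 4 rest on 1 count each. Ccnb1 shares a stretch of 1287 bases at 99.2% identity with its processed copy Ccnb1-ps and its counts were whole in 8 of 8 libraries, so whether reads of the copy were counted is not seen in them.

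The 7 replication genes had log2 fold changes from -0.39 to 0.13. Mcm2, Mcm3, Mcm5 and Mcm6 encode subunits of the replicative helicase. Mcm3 stood at 9.39, 7.77, 8.76 and 8.02 CPM in the TG libraries and at 11.5, 10.1, 9.78 and 11 CPM in the WT libraries, so every TG library lay below every WT library (log2 fold change -0.32, SE 0.15, edgeR unadjusted p = 0.054).

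Mcm5 stood at 7.31, 6.5, 7.51 and 8.02 CPM in the TG libraries and at 13.0, 9.14, 8.57 and 7.49 CPM in the WT libraries, highest in WT replicate 1 (log2 fold change -0.39, SE 0.19, and -0.19 without WT replicate 1). Mcm2 had a positive fold change (14.4 ± 2.2 against 13.2 ± 1.8 CPM) and Mcm6 was at 11.7 ± 2.3 over TG libraries and 12.5 ± 1.4 over WT libraries (SD, n = 4 each). Summed over the 7 replication genes, TG libraries held 104 ± 4 CPM and WT libraries 112 ± 6 CPM (SD, n = 4 each). The ranges overlapped, at 101 to 110 CPM in the TG libraries and 106 to 118 CPM in the WT libraries.

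Pcna, the sliding clamp of DNA polymerase, stood at 27.0, 32.7, 25.3 and 30.3 CPM in the TG libraries and at 29.6, 25.4, 31.9 and 29.96 CPM in the WT libraries, and it was lower in the deeper libraries than in the shallower ones (log2 fold change -0.02, SE 0.13). Rrm2, a subunit of ribonucleotide reductase, stood at 2.61 ± 0.77 CPM in the TG libraries and 2.59 ± 0.55 in WT, and Tyms, thymidylate synthase, at 30.5 ± 2.2 and 34.2 ± 5.0 CPM (SD, n = 4 each). Tyms shares a stretch of 360 bases with another transcript at 97.5% identity, and its counts were fractional in 8 of 8 libraries, so the division of its reads is uncertain. Pcna shares 781 bases with a copy at 99.2% identity, with whole counts.

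The 10 mitotic genes added up to 16.3, 16.5, 13.5 and 17.4 CPM in the TG libraries and to 26.1, 22.2, 25.6 and 20.3 CPM in the WT libraries. Every TG sum lay below every WT sum, and more of this came from Cenpf than from any other gene. Without Cenpf the sums were 11.4, 12.7, 9.87 and 12.9 CPM in the TG libraries and 13.7, 12.1, 16.4 and 18.2 CPM in the WT libraries, and the groups overlapped. No test is given for these sums, since the genes were chosen with earlier results of these libraries known. The sum of 8 macrophage markers, all listed, lay at 512 to 856 CPM in the TG libraries and at 755 to 982 CPM in the WT libraries. All 8 had negative log2 fold changes, from -0.36 for Csf1r to -0.21 for Adgre1, where 50.5% of all genes had a negative one. Csf1r had an unadjusted edgeR p of 0.020 and C1qc one of 0.031, and the adjusted p was 0.99955 for each of the 8. TG replicate 3 was lowest and WT replicate 4 highest both in the macrophage sum and in the mitotic sum without Cenpf. The order of the others differed. TG replicate 1 held 856 CPM of the macrophage markers and 11.4 CPM of the mitotic sum without Cenpf, while WT replicate 3 held 786 and 16.4 CPM. WT replicate 4 was also highest in the sums of endothelial markers (2315 CPM) and of pericyte and smooth muscle markers (2084 CPM). Lymphocyte markers were low in all libraries (3.31 to 5.96 CPM for 7 listed T and NK cell markers, and 8.62 to 13.4 CPM for 5 listed B cell markers). WT replicate 4 was the highest library in both of these sums too. The lowest was WT replicate 3 for the T and NK cell markers and TG replicate 3 for the B cell markers. Trac and Ighm were not listed in any library and are not judged. The part of these cells in the mitotic levels was not tested.

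**Figure D3:**
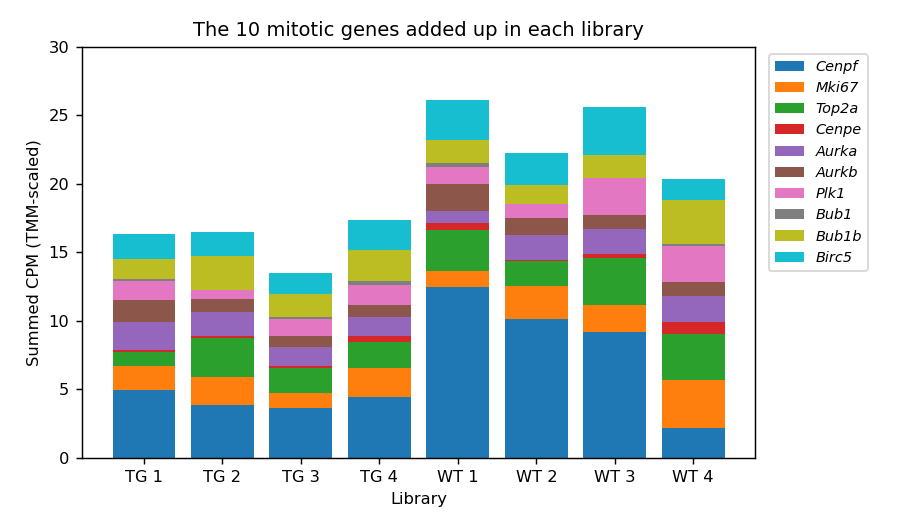
Summed CPM of the 10 mitotic genes in each library (bars start at 0; colours are genes). The TG bars end between 13.5 and 17.4 CPM and the WT bars between 20.3 and 26.1 CPM, with the Cenpf part largest in WT replicates 1 to 3.

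Cenpf, a large kinetochore and nuclear matrix protein of G2 and mitosis, had the largest fold change of the 26 tested members. It stood at 4.96, 3.81, 3.61 and 4.46 CPM in the TG libraries and at 12.5, 10.1, 9.17 and 2.14 CPM in the WT libraries. WT replicates 1 to 3 lay above every TG library and WT replicate 4 lay below every TG library. The log2 fold change was -1.01 (SE 0.38, a 2.02-fold difference, edgeR unadjusted p = 0.020).

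The Cenpf result depended on which libraries were compared. Within the deeper libraries it passed the threshold, at a log2 fold change of -1.39 (edgeR, Benjamini-Hochberg adjusted p = 0.015, 2 libraries per group), while within the shallower ones it was -0.45 (adjusted p = 0.985), and the difference between the classes was not tested. In the deeper libraries alone 59 of 12754 genes passed, beside 2 of 12670 with all 8 libraries. Without WT replicate 4 the log2 fold change of Cenpf was -1.33, with an adjusted p of 0.075 by edgeR, and the range of its adjusted p over all settings was 0.015 to 0.999999. Expected counts of Cenpf were fractional in 8 of 8 libraries, as for Cdk6, Mcm5, Tyms and Birc5, so some of its reads were shared with other transcripts. In the GENCODE M21 transcripts a stretch of 103 bases near the 3′ end of the Cenpf transcript (bases 10942 to 11044 of 11130) matched Gm10778 at 97.1% identity, and 5 genes in all held such a stretch.

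**Figure D4:**
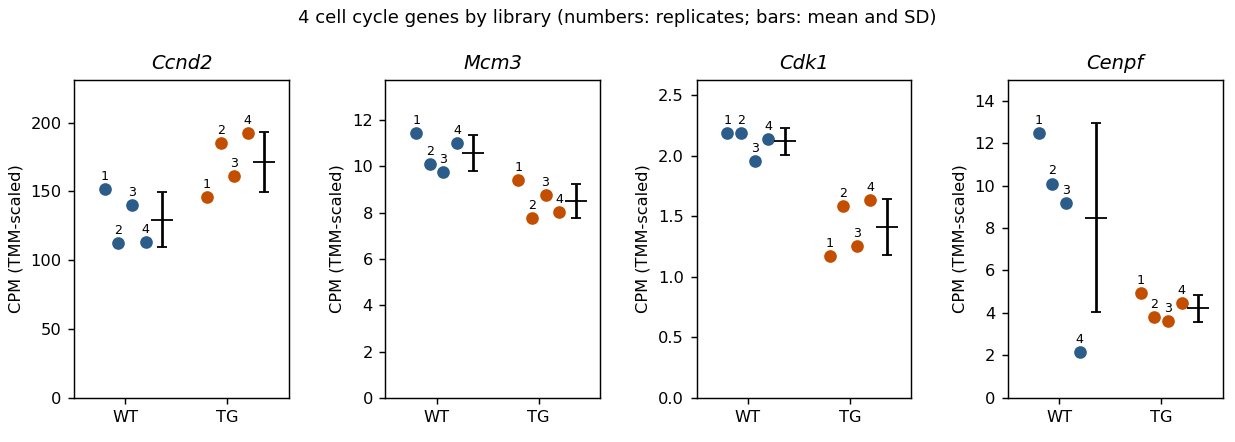
CPM of Ccnd2, Mcm3, Cdk1 and Cenpf in each library (points with replicate numbers; black bars are the mean and SD of 4 libraries; axes start at 0). Mcm3 and Cdk1 separate the groups, Ccnd2 overlaps at replicate 1, and Cenpf of WT replicate 4, at 2.14 CPM, lies below all TG points.

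WT replicate 4, the lowest library of Cenpf, was high in other mitotic genes and low in Birc5. Mki67, the gene of the Ki-67 proliferation antigen, stood at 1.70, 2.06, 1.11 and 2.08 CPM in the TG libraries and at 1.16, 2.46, 1.96 and 3.52 CPM in the WT libraries, highest in WT replicate 4 (log2 fold change -0.38, SE 0.36, and -0.10 without that library). Top2a, DNA topoisomerase II alpha, stood at 1.04, 2.86, 1.81 and 1.93 CPM in the TG libraries and at 2.96, 1.77, 3.46 and 3.36 CPM in the WT libraries (log2 fold change -0.61, SE 0.33). Bub1b, the spindle checkpoint kinase BubR1, stood at 1.44, 2.54, 1.67 and 2.23 CPM in the TG libraries and at 1.67, 1.36, 1.65 and 3.21 CPM in the WT libraries (log2 fold change -0.01, SE 0.34). WT replicate 4 was thus the highest of the 8 libraries in Mki67 and Bub1b, as it was in Ccna2, Ccnb1 and Cenpe, and the lowest in Cenpf, Birc5, Cdk2 and Cdkn1c.

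Aurka, the Aurora kinase that acts at spindle poles, stood at 2.09, 1.75, 1.39 and 1.34 CPM in the TG libraries and at 0.90, 1.77, 1.81 and 1.83 CPM in the WT libraries (log2 fold change 0.07, SE 0.32). Aurkb, the kinase of the chromosomal passenger complex, stood at 1.57, 0.95, 0.83 and 0.89 CPM in the TG libraries and at 1.93, 1.23, 1.05 and 1.07 CPM in the WT libraries, highest in replicate 1 of each group, and was not tested.

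Birc5, which encodes survivin of the same complex, stood at 1.83, 1.75, 1.53 and 2.23 CPM in the TG libraries and at 2.96, 2.32, 3.46 and 1.53 CPM in the WT libraries (log2 fold change -0.49, SE 0.30). The gene length that the authors used for Birc5 ran from 1534 to 3282 bases between libraries, which adds to the spread of its FPKM. Plk1, polo-like kinase 1, stood at 1.2 ± 0.39 CPM over TG libraries and 1.92 ± 0.85 over WT libraries (SD, n = 4 each). Cenpe, the kinetochore motor, stood at 0.13, 0.16, 0.14 and 0.45 CPM in the TG libraries and at 0.52, 0.14, 0.30 and 0.92 CPM in the WT libraries, and Bub1 was listed in 5 of 8 libraries with at most 2 counts, so a difference was not detectable in either at this depth.

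The highest and lowest values of the members were spread over the libraries. WT replicate 1 held the highest value of 8 members, WT replicate 3 of 7 and WT replicate 4 of 5, while TG replicate 2 held the lowest of 10. Of the tested members 4 of 26 (15.4%) separated the deeper from the shallower libraries, namely Ccnd3, Cdk4 and Cdkn1c, higher in the deeper, and Pcna, lower, which is a smaller share than the 29.9% over all genes.

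**Figure D5:**
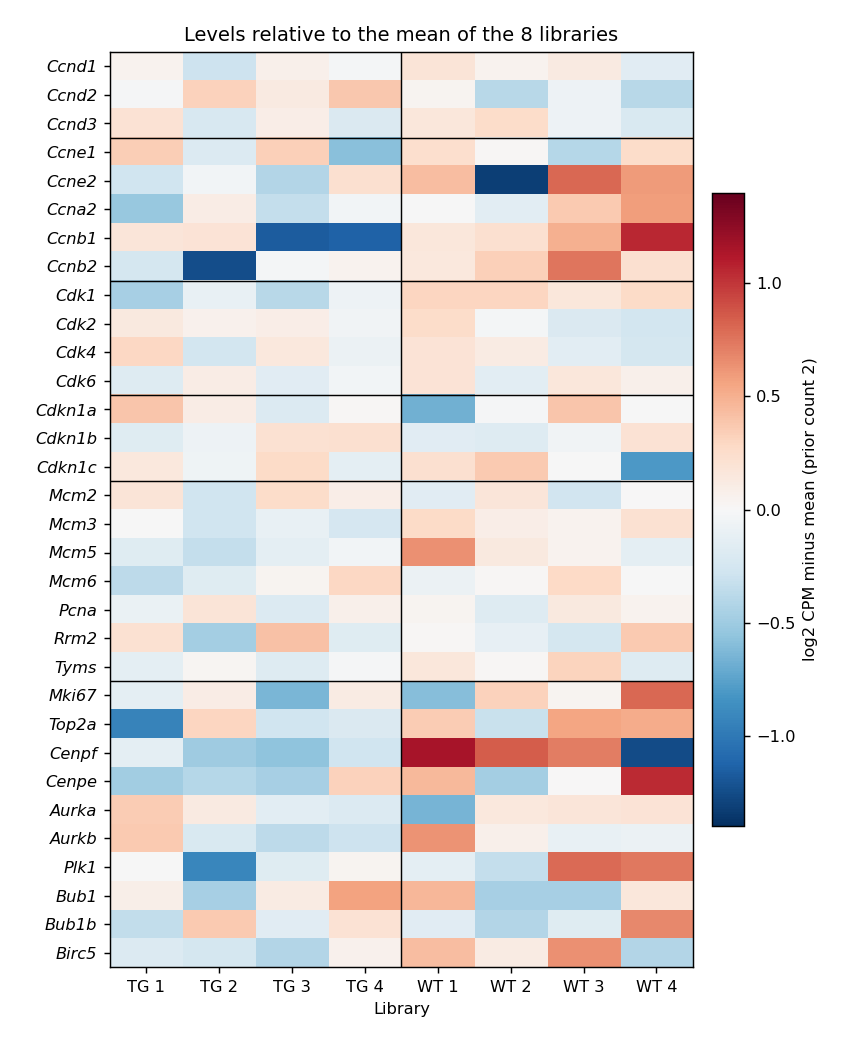
Log2 CPM (prior count 2) of each of the 32 genes minus its mean over the 8 libraries, genes in rows by role and libraries in columns. Cenpf is high in WT replicates 1 to 3 and low in WT replicate 4, while Mki67, Bub1b, Ccnb1 and Cenpe are highest in WT replicate 4.

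Beside the members, 124 other cell cycle genes in 6 lists were read from the same comparison, and 97 of them were tested. Of these, 0 passed the edgeR threshold in either direction, 0 passed in DESeq2, 1 had an unadjusted edgeR p under 0.05 (1.03%, beside 3.49% of all genes), and the median log2 fold change was -0.04. That gene was Cdt1, which loads the Mcm helicase at origins. It stood at 2.09, 2.54, 2.50 and 2.97 CPM in the TG libraries and at 3.61, 4.91, 3.16 and 4.59 CPM in the WT libraries, with every TG library below every WT library, which 1 of the 97 showed (1.03%, beside 1.29% of all genes; log2 fold change -0.69, SE 0.24, edgeR unadjusted p = 0.013). Gmnn, geminin, which inhibits Cdt1, stood at 19.0 ± 4.9 CPM over TG libraries and 18.8 ± 1.9 over WT libraries (SD, n = 4 each).

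Among 19 tested genes of the E2F, retinoblastoma and DREAM group 15 had negative fold changes, with a median of -0.07. E2f6, a repressing E2F factor, was the highest per length and had a log2 fold change of -0.07 (SE 0.12). Tfdp1, the dimer partner of E2F factors, had the smallest p of its list (edgeR unadjusted p = 0.114). Every TG library lay above every WT library (33.2 ± 0.7 against 29.0 ± 2.8 CPM, SD, n = 4 each), with TG replicate 2 at 32.2 and WT replicate 1 at 32.1 CPM. Of the 97 other cell cycle genes tested 1 showed this, beside 1.23% of all genes. Of the INK4 inhibitors of Cdk4 and Cdk6, Cdkn2c and Cdkn2d were tested, with log2 fold changes of -0.18 (SE 0.15) and -0.06 (SE 0.21). The kinase activation and checkpoint list had 5 of 11 negative fold changes, with Mnat1, a subunit of the kinase that activates cyclin-dependent kinases, at 0.38 (SE 0.19) and its cyclin Ccnh at 0.04 (SE 0.17).

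The ubiquitin ligase list of the anaphase-promoting complex and the SCF complex had 8 of 19 negative fold changes, with a median of 0.02. Fbxw7, an F-box protein that marks cyclin E, had a log2 fold change of -0.32 (SE 0.20), and Ube2s, which works with the anaphase-promoting complex, one of 0.02 (SE 0.11). Origin licensing and replication genes had 13 of 27 negative fold changes, with a median of 0.01. The kinetochore, spindle and cytokinesis list had 14 of 19, with a median of -0.08. Its smallest p was that of Smc4, a condensin subunit, at 5.22, 9.04, 3.34 and 7.28 CPM in the TG libraries and at 4.77, 3.14, 4.21 and 4.28 CPM in the WT libraries (log2 fold change 0.59, SE 0.28).

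Of 15 targets of p53 beside Cdkn1a, 14 were tested and 0 passed the edgeR threshold or that of DESeq2, with 8 negative fold changes and a median of -0.03. Btg2, an early antiproliferative target, was the 1 gene with an unadjusted edgeR p under 0.05. It stood at 60.9, 40.1, 39.3 and 38.9 CPM in the TG libraries and at 77.2, 81.3, 55.8 and 44.5 CPM in the WT libraries, where the groups overlapped (log2 fold change -0.53, SE 0.20, edgeR unadjusted p = 0.022).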

How the data were processed

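The authors deposited 1 table per library, with genes by NCBI Gene number. Its expected counts, so named in the file headers, are the authors' estimates per gene, without normalization. The deposited FPKM values are the authors' own, scaled for gene length and library size. The submitters' processing notes name Bowtie2 and the build mm8 without role or version, and the counting program and use of strand are not given in the sources used here. Genes not listed in a library were taken as 0. Symbols (18174 of 18215 numbers) and promoters came from RefSeq on GRCm38.p6, which differs from mm8, so coordinates belong to the printed sequences only.

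Expected counts were rounded. Genes passing edgeR's filterByExpr (minimum count 10, minimum total 15) were tested with its quasi-likelihood F-test (edgeR 4.0.16, R 4.3.3), with TMM scaling, group alone, two-sided, and Benjamini-Hochberg adjustment at 0.05. CPM values use TMM-scaled totals, and SEs were derived from the F statistic (absolute log2 fold change over its square root). Other settings used DESeq2 1.42.0, limma 3.58.1 and changed filters, scalings and libraries. Members' transcripts were compared with GENCODE M21 by BLAST 2.17.0 (80 bases or more, 97% identity or more). The scripts were tested on simulated counts. Libraries of a group differed beyond sampling noise (smallest chi-square per degree of freedom 4.29). The floor of 3 counts covers counting error only.

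The members and lists were chosen with earlier results of these data known. All members are named. Values by library are given for members with an unadjusted p under 0.05, the highest of each role, D cyclins, inhibitors, members flagged below, and some added after their values were seen. Of the other lists, the highest and the smallest p are named.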

Additional observations from a re-analysis of the deposited data

Results flagged for a closer look

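In 4 of the 64 groups of 4 libraries (32 genes in TG and in WT), 1 library stood far from the other 3 by Dixon's criterion, where chance gives about 1 in 20. Aurka in WT replicate 1 was at 0.902 CPM, against 1.77 to 1.83 in the other WT libraries. Bub1b in WT replicate 4 was at 3.21 CPM, against 1.36 to 1.67. Aurkb in TG replicate 1 was at 1.57 CPM, against 0.834 to 0.952, and Cenpe in TG replicate 4 was at 0.446 CPM, against 0.13 to 0.16, on 3 counts. The other 3 rest on 7, 21 and 12 counts. Cenpf in WT replicate 4 did not meet the criterion.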

How the results depend on the processing

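Over 22 other settings the number of members past the threshold was 0, except in the deeper libraries only, where it was 1 (Cenpf). Against 2 genes called over all genes, DESeq2 called 15, no filter 4, limma 1 with a pseudocount of 1 FPKM and 1 with 0.1, the depth class as a covariate 28, deeper libraries only 59 and shallower libraries only 4, and leaving out 1 library 1 to 3. With Carns1 left out edgeR called 0, with 441 genes at an unadjusted p under 0.05. The members' median of -0.08 was -0.14 in the shallower libraries and -0.18 without TG replicates 2 and 4, and ran from -0.13 to -0.07 when 1 library was left out. Same-numbered TG and WT libraries deviated together with r = 0.24, -0.28, -0.18 and 0.40 for numbers 1 to 4, and 3 of 8 libraries correlated best with their own number, so the numbers were not taken as pairs. The replicate block gave 1 gene called and 0 members, with log2 fold changes of 0.41 for Ccnd2, -0.59 for Cdk1 and -0.90 for Cenpf.

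Of 561 refitted fold changes of members, 520 kept their direction and side of the threshold, 1 passed it and 40 changed sign, in 12 members that lay near 0. When 1 library was left out the log2 fold change ran from -0.13 to 0.16 for Aurka, -0.15 to 0.31 for Bub1b, -0.15 to 0.013 for Ccnd3, -0.17 to 0.16 for Ccne1, -0.040 to 0.14 for Cdk4, -0.037 to 0.30 for Cdkn1a, -0.14 to 0.19 for Cdkn1c, -0.22 to 0.014 for Mcm6, -0.084 to 0.037 for Pcna and -0.14 to 0.17 for Rrm2. In the shallower libraries it was -0.24 for Aurka, -0.14 for Cdkn1a, 0.029 for Pcna and -0.45 for Rrm2. In the deeper libraries it was 0.024 for Bub1b, 0.24 for Ccne1, -0.0024 for Cdk2 and -0.092 for Cdkn1c. Without TG replicates 2 and 4, which left only deeper libraries in the TG group, it was 0.0081 for Ccnd1, 0.11 for Ccnd3 and 0.33 for Ccne1. With limma on log2(FPKM + 1) and log2(FPKM + 0.1) Bub1b was at 0.0032 and 0.029 and Rrm2 at -0.0081 and -0.019, and Bub1b was at 0.012 with the replicate block and 0.091 with library weights. The cause was not tested. With 1 library left out, values of the same sign ran from -0.60 to -0.096 for Mki67, -0.85 to -0.39 for Top2a, -0.55 to -0.28 for Ccna2 and -0.66 to -0.32 for Birc5. Depth left 4 of 10 mitotic genes and 2 of 5 cyclins of the E, A and B types untested.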

Other observations

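Some other genes with roles in mitosis stood far above the mitotic members per length. Pttg1, which encodes securin, the inhibitor of chromosome separation, averaged 148 FPKM, at 106 ± 10 CPM over TG libraries and 112 ± 19 over WT libraries (SD, n = 4 each). Bub3 averaged 21.4 FPKM and Cenpa, the centromeric histone, 21.1 FPKM. These 3 were the only genes above 10 FPKM among the 32 listed genes of kinetochore, spindle and cytokinesis, whose median was 0.573 FPKM. Ube2s averaged 92.1 FPKM, and 11 of the 21 genes in its ubiquitin ligase list averaged above 10 FPKM. None of Pttg1, Bub3, Cenpa and Ube2s had an unadjusted p under 0.05 in TG against WT (edgeR).

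Ccng1, cyclin G1, a target of p53, separated the libraries by depth class and not by genotype. It stood at 413 and 505 CPM in the deeper TG libraries and 784 and 750 CPM in the shallower, and at 466 and 442 CPM in the deeper WT libraries and 817 and 835 CPM in the shallower. Such a separation was common, as given above for all genes, and Cdkn1a, a target of the same factor, did not show it.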
